A study of Mus musculus with 4 samples.

Results

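The 10 genes described here encode fast and slow isoforms of the contractile and calcium-handling machinery of skeletal muscle: the myosin heavy chains *Myh1*, *Myh2*, *Myh4* and *Myh7*, the troponins I *Tnni1* and *Tnni2*, the troponins C *Tnnc1* and *Tnnc2*, and the sarcoplasmic reticulum calcium pumps *Atp2a1* and *Atp2a2*. They were chosen by name from the 32286 features measured, and were read in the spots of the skin that were richest in muscle RNA. A spot was called a core spot when its levels of *Acta1*, *Ckm* and *Mylpf* (skeletal actin, muscle creatine kinase and the fast regulatory myosin light chain) each reached that gene's 90th percentile over all spots. This gave 537 of 6411 spots, with 118, 159, 126 and 134 in slices 1 to 4.

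Spatial RNA profiles of dorsal skin were made at P38. The mice carried *Krox20-CreERT* and *R26-tdTomato*, that is, a tamoxifen-inducible recombinase driven by *Krox20* and a red fluorescent reporter of the cells in which it has acted. All mice had received 4-hydroxytamoxifen at P2, and there was no untreated or unlabeled group. Each of the 4 slices carried sections of the same 3 mice, so that the slices are technical replicates, and the SD and the p-values here cover the spread between slices of the same tissue, not between mice. The sections are not labeled by mouse. The study left a further section out of its own analysis for distorted structure, and since its spots are not marked, the spots used here may include it. Slices held between 19393026 and 26910422 unique molecular identifiers (UMIs), and the median core spot held between 12308 and 14332. The 750 barcodes found in all slices are fixed positions of the array and not shared cells. A spot can hold several cells, so fewer muscle fibers and less RNA per fiber cannot be told apart.

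The labels name the tissue as skin, and the panniculus carnosus is the thin sheet of striated muscle beneath the dermis. The 6 skeletal muscle markers (*Acta1*, *Ckm*, *Mylpf*, *Ttn*, *Neb* and *Des*) summed to between 28812 and 29846 CPM (a gene's UMIs for each 1000000 UMIs of the spots summed) in core spots. *Acta1*, *Ckm* and *Mylpf* chose these spots, so a high sum follows from the choice and does not show which muscle it is. The 4 smooth muscle markers summed to between 88.0 and 105 CPM. Core spots also carried other tissue. Fibroblast markers summed to between 4716 and 6003 CPM in them and keratinocyte markers to between 1208 and 1888 CPM. No deposited annotation names the muscle, so the spots are described by the rule that chose them.

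Skeletal muscle fibers are classed by the myosin heavy chain they carry. *Myh7* marks slow type I fibers, and *Myh2*, *Myh1* and *Myh4* mark the fast types IIA, IIX and IIB, in order of rising shortening speed and, as a rule, falling reliance on oxidative metabolism. Slow and fast fibers also use different troponins, and the pump that returns calcium to the sarcoplasmic reticulum is SERCA1 (*Atp2a1*) in fast fibers and SERCA2 (*Atp2a2*) in slow fibers and in heart. *Atp2a2* is also the general pump of the endoplasmic reticulum in non-muscle cells, epidermal keratinocytes included.

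*Myh2*, *Myh1* and *Myh4* lie next to one another on the plus strand of chromosome 11, whereas *Myh7* lies on chromosome 14. Their promoters are shown because the 3 clustered genes are used by fast fibers but differed in level in the same spots, and *Myh7* is the slow gene for comparison. Each sequence holds the 250 bases before the first annotated start, 5′ to 3′ on the gene's strand, from RefSeq on GRCm38.p6, at chr11:67170777-67171026 (+) for *Myh2*, chr11:67199852-67200101 (+) for *Myh1*, chr11:67237562-67237811 (+) for *Myh4* and chr14:54994627-54994876 (-) for *Myh7*. Capitals mark matches, on either strand, to an E-box (CANNTG), to an MCAT element (spelled CATTCC), to a TATA box (here the letters TATAAA), to a CArG box or to a MEF2 site.
Myh2: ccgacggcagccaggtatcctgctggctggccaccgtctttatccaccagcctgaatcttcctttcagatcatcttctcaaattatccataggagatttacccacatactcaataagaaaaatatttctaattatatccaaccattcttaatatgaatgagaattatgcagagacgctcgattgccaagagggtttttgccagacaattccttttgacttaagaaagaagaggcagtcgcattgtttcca
Myh1: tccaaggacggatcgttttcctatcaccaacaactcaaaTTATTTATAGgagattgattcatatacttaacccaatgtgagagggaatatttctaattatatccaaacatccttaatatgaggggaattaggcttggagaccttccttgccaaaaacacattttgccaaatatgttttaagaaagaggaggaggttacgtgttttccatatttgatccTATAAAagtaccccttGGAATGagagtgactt
Myh4: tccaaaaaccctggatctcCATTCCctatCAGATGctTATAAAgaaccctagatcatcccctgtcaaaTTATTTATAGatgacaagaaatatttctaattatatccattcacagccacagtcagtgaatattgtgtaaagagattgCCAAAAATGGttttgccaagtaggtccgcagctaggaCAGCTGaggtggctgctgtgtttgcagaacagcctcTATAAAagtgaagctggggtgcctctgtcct
Myh7: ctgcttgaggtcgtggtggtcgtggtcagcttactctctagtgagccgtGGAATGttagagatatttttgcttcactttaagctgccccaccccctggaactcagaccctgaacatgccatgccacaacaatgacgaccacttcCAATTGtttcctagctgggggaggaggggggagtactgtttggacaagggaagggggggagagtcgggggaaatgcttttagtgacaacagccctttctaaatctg

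The *Myh4* promoter held matches to all 5 motifs. The *Myh1* promoter held matches to the MCAT, MEF2 and TATA box motifs, with the MEF2 match overlapping a TATA box in both genes, and none of the motifs searched was in the *Myh2* window. The *Myh7* window held an E-box and an MCAT match. *Myh7* has 2 annotated starts, and the window of the other start, not shown, held 2 E-boxes and no other motif searched. Among 32851 promoters of this length, 66.2% held an E-box, 12.6% an MCAT element, 12.4% a TATA box, 1.47% a CArG box and 1.69% a MEF2 site. The 3 fast promoters shared a run of 20 bases, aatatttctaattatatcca, which began 165 bases before the start of *Myh1*, 130 before that of *Myh2* and 163 before that of *Myh4*. The run lay nearest to the start in *Myh2*, so the 3 fast windows are not in register. Bases that correspond to the TATA boxes nearest to the *Myh1* and *Myh4* starts could lie past the *Myh2* window, where no search was made. In the windows shown, the longest run that *Myh1* and *Myh7* shared was 8 bases. Of the 10 genes, 8 had a promoter entry, with *Tnni2* and *Atp2a2* lacking one. These matches are descriptions of the sequence, and binding was not measured.

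In core spots the myosin transcripts were those of fast fibers. *Myh1* (type IIX) measured 6368, 6257, 6684 and 6578 CPM in slices 1 to 4. *Myh4* (type IIB) measured 1673, 1744, 2002 and 2106 CPM, and *Myh2* (type IIA) measured 320.1, 289.8, 342 and 391 CPM. The order *Myh1*, *Myh4*, *Myh2* held in every slice, and the ranges of the 3 genes did not overlap. Each UMI stands for 1 captured molecule whatever the transcript length, so levels can be set side by side, although transcripts may differ in how well they are captured.

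As shares of all *Myh1*, *Myh2*, *Myh4* and *Myh7* UMIs, *Myh1* held 74.5% ± 1.63 (SD, n = 4 slices), *Myh4* 21.6% ± 1.38 and *Myh2* 3.86% ± 0.338. No *Myh7* UMI was found among the 67659 myosin UMIs of core spots, which allows a share of up to 0.00443%. Over all 6411 spots of the skin, *Myh7* was counted once. The last 500 bases of *Myh1* and *Myh2* transcripts share a run of 121 bases, and both share runs of 83 bases with *Myh4*, so that part of the reads of these paralogs may be split or dropped in counting. The shares of *Myh1* and *Myh4* were 74.3% and 21.6% where spots were instead chosen on *Ttn*, *Neb* and *Des*, which all fiber types use.

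**Figure D1:**
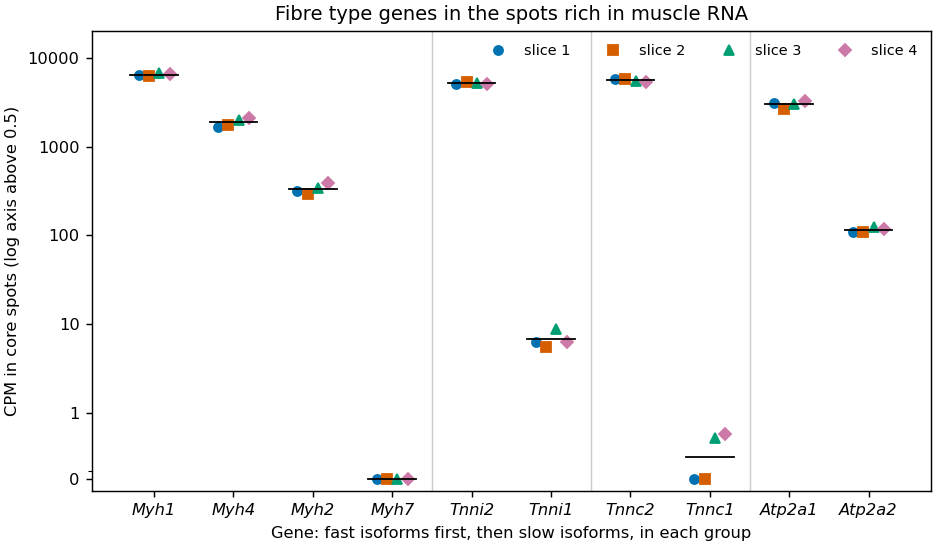
Levels of the 10 genes in core spots, as CPM on an axis that is logarithmic above 0.5 and linear below; each point is 1 slice and bars are means over 4 slices. *Myh1*, *Tnni2*, *Tnnc2* and *Atp2a1* lie at or above 2630.5 CPM in every slice, *Atp2a2* lies between 109 and 124 CPM, and *Myh7* is at 0.

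Both fast troponins were among the abundant transcripts. *Tnni2*, the inhibitory subunit of fast fibers, measured 5137, 5306, 5279.9 and 5024 CPM, and *Tnnc2*, their calcium-binding subunit, measured 5862, 5815, 5430.5 and 5346 CPM. Their ratio stayed near 1, with 1.08 ± 0.0479 *Tnnc2* UMIs for each *Tnni2* UMI (SD, n = 4 slices). The slow troponins were almost absent. *Tnni1* measured 6.27, 5.5, 8.74 and 6.31 CPM, from 52 UMIs, and made up 0.129% ± 0.0260 of the *Tnni1* and *Tnni2* UMIs. *Tnnc1*, which is shared by slow fibers and heart, was at 0 in slices 1 and 2 and at 1 UMI in each of slices 3 and 4, against 43920 UMIs of *Tnnc2*. A count of 3 UMIs over all slices corresponds to 0.384 CPM, so *Tnnc1*, with 2, was under that floor.

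The fast pump dominated as well. *Atp2a1* measured 3078, 2630.5, 3035 and 3273 CPM, and *Atp2a2* measured 109, 109, 124 and 118 CPM. *Atp2a2* made up 3.69% ± 0.293 of the UMIs of the pair in core spots. It was the most abundant of the slow isoforms, with 894 UMIs in core spots against 52 for *Tnni1*, 2 for *Tnnc1* and none for *Myh7*.

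Core spots were next compared with the spots that touch them on the hexagonal grid (step 1, 847 spots). Core spots were chosen on muscle genes, so a higher level of muscle genes there follows from the choice and is given as a description. Of 11548 genes tested with edgeR, 18.1% were called higher and 14.7% lower in core spots (adjusted p under 0.05). Of the 8 members tested, 6 were called higher, namely *Myh1*, *Myh2*, *Myh4*, *Tnni2*, *Tnnc2* and *Atp2a1*, with log2 fold changes between 2.21 for *Myh2* and 2.62 for *Tnnc2*. *Tnni1* and *Atp2a2* were not. The log2 fold change of *Tnni1* was 0.14 ± 0.25 (SE; adjusted p = 0.70), and that of *Atp2a2* was -0.11 ± 0.08 (SE; adjusted p = 0.302). *Myh7* and *Tnnc1* had too few counts to be tested. *Xist*, which is transcribed in female cells, was called higher in core spots (log2 fold change 0.45 ± 0.15 SE, adjusted p = 0.0241). The zones may thus hold the mice and sexes in unequal parts, and the effect of this was not tested.

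The partners of the fast isoforms followed the members, and so did most genes listed as slow. Since core spots were chosen on muscle genes, these calls and those of the lists below are also given as a description. All 10 fast partners were called higher in core spots, with a median log2 fold change over the 10 of 2.52 against -0.03 over all genes tested. They include *Pvalb* (2090.1 CPM), the calcium buffer parvalbumin, *Eno3* (2052 CPM), the muscle enolase, and *Actn3* (512 CPM), the α-actinin of fast fibers. Of 9 slow partners, 7 were tested and 6 called higher. The 2 that had too few counts were the slow light chains *Myl2* (2 UMIs in core spots) and *Myl3* (9 UMIs), which accompany *Myh7* in slow fibers. *Tnnt1*, the slow troponin T, was at 12.3 ± 1.38 CPM, against 4776 ± 207 CPM for the fast *Tnnt3*.

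Higher levels were seen for *Mybpc1* (469 ± 12.9 CPM), the slow-type myosin-binding protein C, which was close to the fast *Mybpc2* (449.6 ± 7.86 CPM), and for *Csrp3* (343 ± 15.3 CPM), a Z-disc LIM protein. *Myoz2*, the slow calsarcin, was at 74.9 ± 10.5 CPM against 426 ± 20.8 CPM for the fast *Myoz1*. The slow calsequestrin *Casq2* was at 22.5 ± 4.72 CPM against 876 ± 45.3 CPM for *Casq1*. *Tpm3*, the slow tropomyosin gene that many other cells also use, was the slow partner tested but not called, with a log2 fold change of -0.03 ± 0.09 (SE; adjusted p = 0.816). The ranges of *Mybpc1* and *Mybpc2* over slices overlapped, unlike those of the other fast and slow pairs named here.

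All 7 oxidative fiber genes were called higher, among them *Mb* (747 ± 59.3 CPM), which encodes myoglobin, and *Cox6a2* (1037 ± 71.9 CPM), a muscle subunit of cytochrome c oxidase. Of the regulators of the calcium pump, *Sln* (sarcolipin, 122 ± 14.7 CPM) and *Mrln* (myoregulin, 43.7 ± 10.7 CPM) were present, and *Pln* (phospholamban) and *Strit1* were each at 0 UMIs, under the floor of 0.384 CPM. All 3 calcium release genes tested were called higher, including *Ryr1* (324 ± 29.4 CPM), the calcium release channel. Of the other sarcomeric myosins, *Myh8* (perinatal) was at 21.4 ± 4.21 CPM and was called higher, *Myh3* (embryonic) had 4 UMIs and *Myh6* had none.

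Of the transcription factors and cofactors known to set fiber type, 9 of 10 were tested and 8 called higher. Of all genes tested, 18.1% were called higher. *Eya1*, a transcriptional cofactor, was tested but not called, with a log2 fold change of -0.15 ± 0.24 (SE; adjusted p = 0.665). *Tbx15*, which is linked to glycolytic fibers, was at 40.9 ± 2.98 CPM, and *Sox6*, a repressor of slow genes, at 16.0 ± 4.44 CPM. *Prox1*, which supports the slow program, had 8 UMIs and was not tested. Of 5 myogenic factors, 3 were tested and all were called higher, with *Myf6* the most abundant at 25.6 ± 3.46 CPM. *Pax7*, the marker of satellite cells, had 11 UMIs. All 7 type-neutral sarcomere genes were called higher, with a median log2 fold change over the 7 of 2.57.

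With distance from the core the levels of the fast members were lower, and that of the slow pump was not. *Myh1* fell from 6472 ± 194 CPM in core spots to 1277 ± 158, 263 ± 56.5 and 134 ± 42.1 CPM at 1, 2 and 3 grid steps, and stood at 185 ± 4.92 CPM at 4 or more steps (mean ± SD over slices). *Tnni2* fell from 5187 ± 132 to 141 ± 11.3 CPM at 4 or more steps, and *Atp2a1* from 3004 ± 269.7 to 84.3 ± 8.43 CPM. Their ratios to *Acta1* moved far less than their levels. *Myh1* stood at 0.461 per *Acta1* UMI in core spots and 0.506 at 4 or more steps (higher in 4 of 4 slices), *Tnni2* at 0.369 and 0.385 (3 of 4) and *Atp2a1* at 0.214 and 0.231 (3 of 4). The ratio of *Ckm* was also higher in 4 of 4 slices (0.342 and 0.372), and that of *Tnnc2* was lower in 4 of 4 (0.400 and 0.374). The exact sign-flip test cannot go below p = 0.125 with 4 slices, so it shows neither a change nor stability of these ratios. *Tnni2* was found in 59.9% ± 5.62 of the spots at 3 steps and in 61.5% ± 2.10 of those at 4 or more steps. The median UMIs per spot were lower at 4 or more steps than at 3 steps in every slice. With spots thinned to an equal number of UMIs, these values were 34.3% ± 5.34 at 3 steps and 43.1% ± 3.31 at 4 or more steps. Thinning left out 45 spots at 3 steps and 444 at 4 or more steps. The source of the RNA of the fast members away from the muscle was not tested.

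*Atp2a2* measured 115 ± 7.36 CPM in core spots, 140.2 ± 9.72 at 1 step, 169.9 ± 13.2 at 2 steps, 166 ± 23.7 at 3 steps and 155 ± 11.2 at 4 or more steps. Its level in core spots was below that of each other zone in 4 of 4 slices. Its share of the *Atp2a1* and *Atp2a2* UMIs was 3.69% ± 0.293 in core spots and 64.8% ± 2.75 at 4 or more steps. The log2 ratio of *Atp2a2* to *Atp2a1* was higher than in core spots by 2.68 ± 0.19 at 1 step and by 5.59 ± 0.16 at 4 or more steps (SD over slices), in 4 of 4 slices each. The exact two-sided sign-flip test gave p = 0.125, the smallest that 4 slices allow. For *Atp2a2*, core against step 1, the test without composition normalization gave a log2 fold change of -0.29 and an adjusted p of 0.0128, and steps 1 and 2 as 1 zone gave -0.24 and 0.0199, so whether *Atp2a2* was called lower in core spots depended on these choices.

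*Tnni1* was not lower over the first 3 steps either, at far lower counts. It measured 6.70 ± 1.41 CPM in core spots, 6.70 ± 1.56 at 1 step, 12.0 ± 1.90 at 2 steps, 11.2 ± 3.24 at 3 steps and 5.22 ± 0.920 at 4 or more steps. Its level was higher at 2 steps and at 3 steps than in core spots in 4 of 4 slices. The summed hair follicle markers *Krt35*, *Krt31* and *Krt71* were also highest in these zones, at 10959 and 11322 CPM against 6086 CPM in core spots. Their part in this result was not tested.

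**Figure D2:**
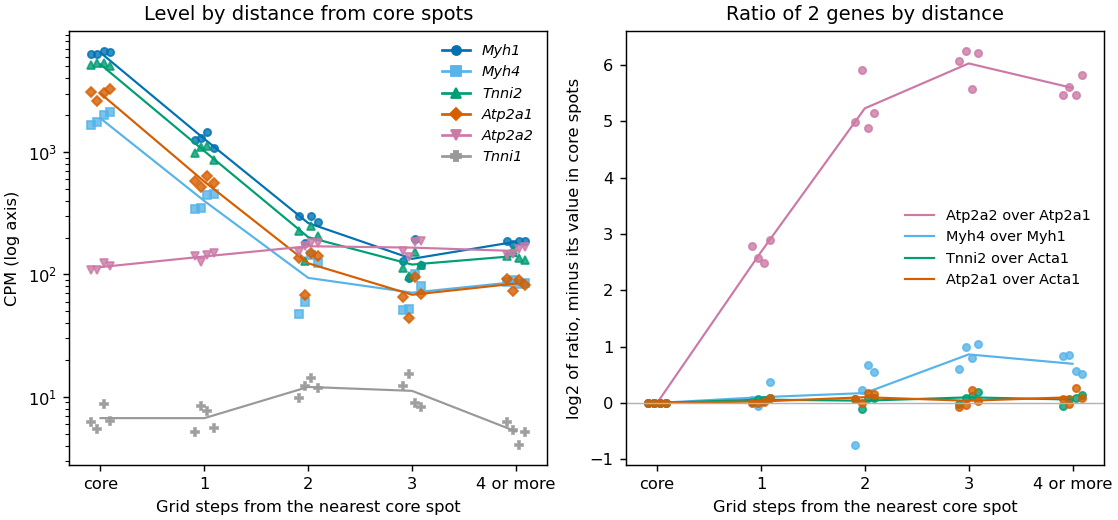
Left, CPM (log axis) of 6 genes in core spots and at 1, 2, 3 and 4 or more grid steps from them; right, log2 of the ratio of a pair of genes minus its value in core spots. Points are slices and lines join means over 4 slices. *Myh1*, *Myh4*, *Tnni2* and *Atp2a1* are lower at each of the first 3 steps, while *Atp2a2* stays between 115 and 169.9 CPM on average, so that its log2 ratio to *Atp2a1* is higher by 5.59 at 4 or more steps.

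The ratio of *Myh4* to *Myh1* was 0.290 ± 0.0249 in core spots, 0.316 ± 0.0686 at 1 step and 0.469 ± 0.0261 at 4 or more steps, a log2 difference between the last zone and the core of 0.70 ± 0.18 (SD over slices), higher in 4 of 4 slices (exact two-sided sign-flip p = 0.125, the smallest possible). Where each slice was cut into 3 strips, the mean difference was 0.83 ± 0.92, 1.04 ± 0.25 and 0.19 ± 0.27 in strips 1, 2 and 3 (SD over slices). In strip 1, slice 1 stood at 2.21 and the other slices between 0.32 and 0.42. In strip 3 the values were -0.01, 0.51, -0.05 and 0.32 in slices 1 to 4. With the cuts placed at the emptiest position, the strip 3 mean was -0.23 ± 0.30. Under neither cut did all slices share a direction in strip 3.

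Away from muscle, *Atp2a2* was compared between 498 epidermis-rich spots, chosen on the keratinocyte genes *Krt1*, *Krt10* and *Lor*, and the other 2986 spots at 4 or more steps. Of 12338 genes tested, 15.7% were called higher and 14.1% lower in epidermis-rich spots. None of the 8 members tested was called by edgeR, 1 had an unadjusted p under 0.05, and DESeq2 called 0. *Atp2a2* measured 117, 129.5, 152 and 155 CPM in epidermis-rich spots and 148, 149, 164 and 169 CPM in the others, lower in 4 of 4 slices. Its log2 fold change was -0.21 ± 0.10 (SE; adjusted p = 0.126), and with the slice as a block the adjusted p was 0.0304. *Atp2a3*, a pump gene of non-muscle cells, was called higher in epidermis-rich spots, with 14.1 ± 3.78 against 5.74 ± 1.78 CPM and a log2 fold change of 1.31 ± 0.26 (SE; adjusted p = 0.000683). *Xist* was called higher in epidermis-rich spots as well (log2 fold change 0.62 ± 0.17 SE, adjusted p = 0.00711). These 2 sets of spots may hold the mice and sexes in unequal parts, and the effect of this was not tested.

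Among the listed genes, *Mef2a* (1.01), *Nfatc1* (0.99) and *Sox6* (1.37), which are regulators of fiber type with known roles outside muscle, were called higher in epidermis-rich spots, as were *Tpm3* (0.34), *Myl4* (0.96), *Fabp3* (1.17) and *Des* (0.56), the values being log2 fold changes. *Ryr1* (-0.95), *Ppargc1a* (-1.52) and *Tcap* (-0.70) were called lower. None of the 10 fast partners was called, and none of them had an unadjusted p under 0.05 in edgeR.

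The mix of fast myosins differed between parts of the same slice. Each slice was cut across its short axis into 3 strips that hold equal numbers of all kept spots, from positions alone, and core spots were summed by strip. Strip 2 of slice 4 had 17 core spots and was left out of the test. Of 8447 genes tested between strips, 2.56% were called. Of the 10 members, 7 were tested and 3 were called, all of them myosins: *Myh4*, *Myh2* and *Myh1*. The *Myh4* share of myosin UMIs was 8.77%, 13.4%, 13.6% and 15.7% in strip 1 of slices 1 to 4, 13.9%, 12.3%, 14.7% and 20.1% in strip 2, and 32.0%, 30.2%, 34.5% and 31.0% in strip 3. Strip 3 lay above both other strips in every slice, whereas strips 1 and 2 overlapped.

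*Myh4* was higher in strip 3 than in strip 1 by 1.56 ± 0.15 on the log2 scale (SE), and *Myh2* by 1.14 ± 0.16. The edgeR test of any difference among the 3 strips gave an adjusted p of 8.05e-09 for *Myh4* and 1.31e-05 for *Myh2*. The other adjusted p-values for strips and bands are of the same kind. *Myh1* was highest in strip 2, by 0.41 ± 0.10 over strip 1 (adjusted p = 0.00178), but this call was lost without slice 3 (adjusted p = 0.224). *Tnni2* (adjusted p = 0.765), *Tnnc2* (0.823), *Atp2a1* (0.771) and *Atp2a2* (0.870) were not called.

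**Figure D3:**
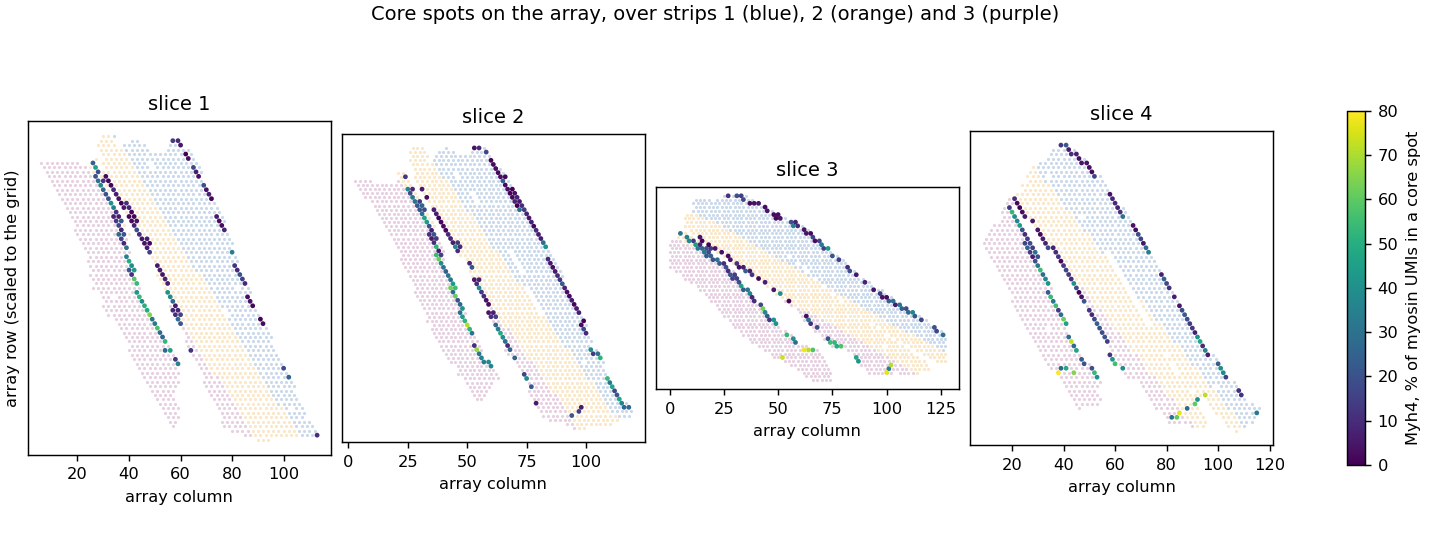
Core spots of the 4 slices on the array (axes are array column and array row), colored by the *Myh4* share of their myosin UMIs, over all spots shaded by strip. The core spots form 3 tilted lines in each slice, the strips cut across them, and the leftmost line has the highest shares on average.

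Core spots formed 3 tilted lines per slice that the equal strips cut across. As an alternative chosen after the data had been seen, 3 straight lines were fitted to the core spots of each slice from their positions alone, and the spots nearest to each line are called bands 1 to 3. Bands held between 30 and 63 core spots. Of 7660 genes tested between bands, 3.54% (271) were called, and 187 of these were among the 216 called between strips. The *Myh4* share was 8.77%, 13.4%, 13.6% and 17.6% in band 1, 10.9%, 15.1%, 23.4% and 21.4% in band 2, and 32.0%, 33.8%, 29.7% and 34.2% in band 3. Band 3 again lay above the other bands in every slice. *Myh4* was higher in band 3 than in band 1 by 1.58 ± 0.19 on the log2 scale (SE) and *Myh2* by 1.49 ± 0.19. The test of any difference among the 3 bands gave an adjusted p of 2.51e-06 for *Myh4* and 5.29e-07 for *Myh2*.

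*Myh2* measured 138, 203, 247 and 258 CPM in band 1, 262, 112, 186 and 307 CPM in band 2, and 449.7, 542, 599.9 and 748 CPM in band 3. *Myh1* measured 8987, 7281, 7179 and 7355 CPM in band 2, above both other bands in every slice, with between 5634 and 6596 CPM in band 1 and between 5048 and 6353 CPM in band 3. The difference in *Myh1* (adjusted p = 0.0394) was not called without slice 1 (0.451), slice 2 (0.143) or slice 3 (0.122). *Tnni2*, *Tnnc2*, *Atp2a1* and *Atp2a2* were not called between bands, with adjusted p between 0.143 for *Tnnc2* and 0.943 for *Atp2a2*. With the slice as a block, 499 genes and 5 members were called, the added members being *Tnnc2* (adjusted p = 0.00116) and *Tnni2* (0.0288), and 406 genes were called between strips.

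Bands differed in other fiber type genes as well. *Sln*, an inhibitor of the calcium pump, measured 239.8, 258, 207 and 239 CPM in band 1, 24.7, 11.8, 19.9 and 13.3 CPM in band 2, and 98.0, 90.1, 66.3 and 62.9 CPM in band 3. The 3 bands did not overlap, and *Sln* differed between bands 2 and 1 by -3.75 ± 0.20 on the log2 scale (SE; adjusted p over the bands = 4.31e-14). *Mrln*, another pump inhibitor, was at 61.6 ± 13.6 CPM in band 1, 33.6 ± 7.2 in band 2 and 33.6 ± 12.0 in band 3 (adjusted p = 0.0180), and was not called without slice 1 (0.0512), slice 2 (0.110) or slice 4 (0.0961).

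*Mb* was highest in band 2, at 1333, 996, 1054 and 948 CPM, against 647 ± 35.2 CPM in band 1 and 577 ± 14.6 CPM in band 3 (adjusted p = 4.44e-06). Among the fast partners, 3 of 10 were called, and all 3 were lowest in band 1: *Actn3* was at 362 ± 52.6 CPM in band 1, 616 ± 54.5 in band 2 and 595 ± 73.4 in band 3 (adjusted p = 7.14e-05), *Mybpc2* at 309 ± 56.7, 569.6 ± 29.7 and 499.8 ± 39.2 CPM, and *Pvalb* at 1677 ± 95.5, 2573 ± 156 and 2137 ± 196 CPM. With the slice as a block in edgeR, *Eno3* (adjusted p = 0.00144), *Tnnt3* (0.00759), *Casq1* (0.0471) and *Myoz1* (0.0491) were called between bands as well. None of 7 slow partners tested was called, and 2 had an unadjusted p under 0.05 between strips. None of the 6 regulators tested was called either.

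Of the oxidative genes, 3 of 6 tested were called between bands, against 3.54% of all genes tested. With the slice as a block in edgeR, *Cox6a2* (adjusted p = 0.00738), *Cox7a1* (0.0246) and *Ckmt2* (0.0459) were called as well. The calls that follow are without the block. Beside *Mb*, these were *Cox8b*, lowest in band 2 (716 ± 98.2, 469 ± 46.8 and 718 ± 98.5 CPM in bands 1 to 3), and *Fabp3*, highest in band 3 (100.4 ± 6.64, 83.8 ± 13.6 and 129 ± 12.5 CPM). Neither was called between the equal strips. *Fabp3* was not called without slice 2 (adjusted p = 0.135) or slice 4 (0.0511). The highest *Mb* and the lowest *Cox8b* were thus found in the same band. *Tcap*, the titin cap, was the type-neutral gene called of the 7, at 1089 ± 37.2, 936 ± 54.9 and 712 ± 30.2 CPM, and was not called without slice 3 (0.0514). With the block, *Des* was called as well (adjusted p = 0.0322).

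**Figure D4:**
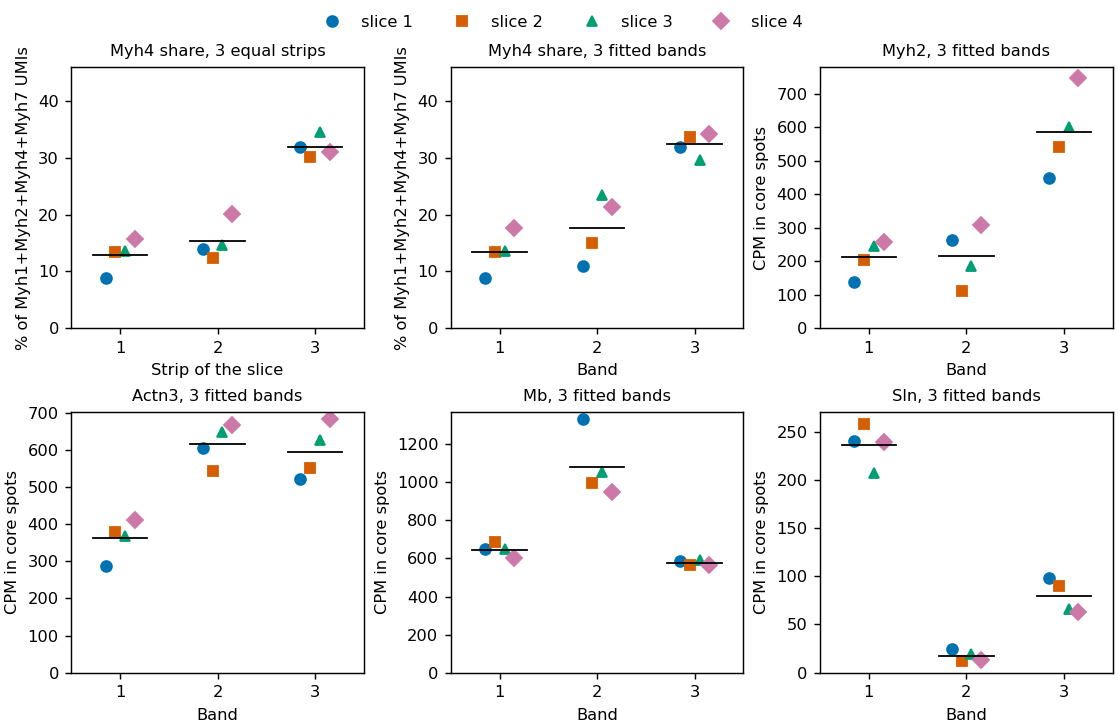
*Myh4* share of myosin UMIs in the 3 equal strips and in the 3 fitted bands (percent), and CPM of *Myh2*, *Actn3*, *Mb* and *Sln* in core spots of the bands; points are slices and bars are means. Strip 2 of slice 4 is drawn but was not tested. *Myh4* and *Myh2* are highest in band 3, *Mb* in band 2 and *Sln* in band 1, and *Actn3* is lowest in band 1.

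Other values moved with the bands. *Xist*, which is transcribed in female cells, made up 86.3% to 94.8% of the UMIs of *Xist* and 4 Y-linked genes in band 1, 5.48% to 18.1% in band 2 and 11.3% to 15% in band 3. Band 1 against the others can therefore not be told apart from a difference between sexes. Whether each band is 1 mouse is not labeled, and with 3 mice a difference between bands cannot be told apart from one between single animals. Fibroblast markers summed to 3754 ± 433, 4886 ± 798 and 7815 ± 1758 CPM in bands 1 to 3, and keratinocyte markers to 1955 ± 365, 1151 ± 264 and 1076 ± 152 CPM, whereas the skeletal muscle markers summed to 27206 ± 1627, 29212 ± 1879.6 and 31130 ± 1725 CPM. Endothelial markers summed to 67.7 ± 9.84, 122 ± 20.8 and 95.4 ± 8.10 CPM, highest on average in band 2 as *Mb* was, with no overlap between bands 1 and 2. Smooth muscle markers summed to 126 ± 16.4, 81.4 ± 12.5 and 76.1 ± 23.2 CPM. The part of these other cell types in the results was not tested.

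Within a band, the *Myh4* share also varied along the slice. Position was measured from 0 to 1 along the long axis of the tissue, from low to high array rows, after the pattern had been noticed, so it is given as a description with no test. The Spearman correlation across the core spots of a band between *Myh4* share and position was above 0 in all 12 bands, from 0.070 to 0.550 in band 1, from 0.537 to 0.801 in band 2 and from 0.349 to 0.442 in band 3. Neighboring spots share tissue and library and are not independent. With each slice cut into 3 parts of equal length, the share in band 2 of slice 4 was 6.72% in the part with the lowest rows, 23.5% in the middle and 52.8% in the part with the highest rows, which held 6 core spots. In band 3 of slice 1, it was 22.1% in the first part and 40.5% in the middle, and no core spot of that band lay in the last.

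Both genes varied, and not alike in every band. In band 2 of slice 4, where the correlation was highest, *Myh1* measured 11217, 6388 and 3891 CPM in the 3 parts, and *Myh4* measured 831, 2065 and 4589 CPM. In band 2 of slice 2, *Myh4* measured 843, 1513 and 1537 CPM, nearly level over the last 2 parts. In band 1, *Myh1* was highest in the middle part in every slice, with 6073, 7912 and 4826 CPM in slice 2. Over all core spots of a slice, the correlation of position with *Myh1* CPM was between -0.50 and -0.15, with *Myh4* CPM between 0.14 and 0.27, and with *Actn3* CPM between -0.23 and 0.06. Position also correlated with total UMIs per spot, between 0.14 and 0.37, and with *Acta1* CPM, between -0.31 and -0.09. Their part in the pattern was not tested.

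**Figure D5:**
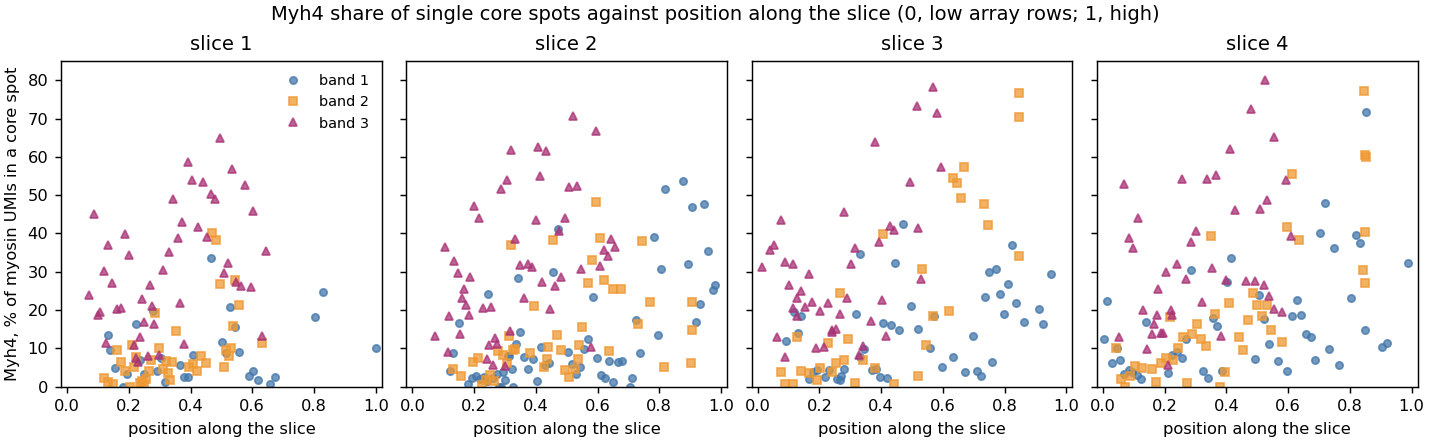
*Myh4* share of myosin UMIs (percent) in single core spots against position along the slice (0, low array rows; 1, high), by band and slice. Share and position correlate positively in each band, from 0.070 to 0.801, and band 3 has the highest shares on average.

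At the level of single spots the fast isoforms were mixed. All 3 fast myosins were found in 399 of 537 core spots. The *Myh4* share of single spots had medians of 11.4%, 13.5%, 18.5% and 18.3% in slices 1 to 4 and reached 64.8%, 70.7%, 78.3% and 80% in the highest spot of each. *Myh4* exceeded *Myh1* in 50 core spots, or 7.63%, 8.18%, 9.52% and 11.9% of those of slices 1 to 4, and 46 of the 50 lay in strip 3. Strip 3 held 38, 64, 44 and 69 core spots in slices 1 to 4. Strip 1 held 30, 63, 49 and 48, and strip 2 held 50, 32, 33 and 17. A core spot held at least 20 myosin UMIs, and its median was between 113.5 and 135 per slice, so shares of single spots are coarse. A spot wider than a fiber cannot show whether single fibers carried more than 1 myosin.

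Across core spots, *Myh1* and *Myh4* were inversely related, with a mean Spearman correlation over slices of -0.29 (from -0.40 to -0.21), as were *Myh1* and *Myh2* (-0.14). *Myh2* and *Myh4* had a weakly positive one (0.18). The fast troponins varied together (0.84 for *Tnni2* and *Tnnc2*), and *Tnni2* followed *Myh1* (0.63) more than *Myh4* (0.16). *Atp2a1* correlated with *Tnni2* at 0.68, whereas *Atp2a2* correlated with *Atp2a1* at -0.12 and with *Tnni1* at 0.07. Values are CPM, so an abundant gene lowers the others, and spots of a slice share a library. Core spots may also differ in how much muscle they hold, and the part of this in the positive values was not tested. Each value rests on 118 to 159 spots per slice.

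Among 5930 genes found in at least 20% of core spots of every slice, those most like *Myh1* were *Acta1* (mean correlation 0.67), *mt-Co3* (0.64), *mt-Atp6* (0.63), *Tnnt3* (0.63) and *Tnni2* (0.63), that is, sarcomere genes and mitochondrially encoded subunits of the respiratory chain and ATP synthase. For *Atp2a2* the highest were *Rbm3* (0.18), *Eif4a3* (0.17), *Rnpep* (0.17), *Ubqln1* (0.17) and *Msx2* (0.15), which are weak and include no muscle gene of the lists. No slow myosin was found in core spots, so none could be ranked. The genes most like *Myh4*, which were looked up after the other values had been seen, were *Actn3* (0.42), *Pvalb* (0.40), *Mybpc2* (0.40), *Col1a1* (0.37) and *Col1a2* (0.34). The first 3 are fast fiber genes and the last 2 encode type I collagen. The 3 fast fiber genes and the summed fibroblast markers were on average lowest in band 1, as *Myh4* was. The part of the bands in these correlations was not tested.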

How the data were processed

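Visium 3′ libraries of 4 slices of P38 dorsal skin were analyzed. The authors deposited raw UMI counts per gene and spot for spots over tissue, made with Space Ranger 2.0.1 per the file headers and, per the submitters' processing notes, on mm10. The authors applied no normalization to these counts. The members and gene lists were chosen with earlier results of these data known, and the samples form 1 group.

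Spots with at least 250 genes were kept, which removed 9 of 6420. Core spots had CPM of *Acta1*, *Ckm* and *Mylpf* at or above 7371, 2606 and 3388, the 90th percentile of each over all slices. Other spots were classed by grid steps to the nearest core spot. No doublet caller was run on spots. UMIs were summed per slice and zone, strip or band, and sums of under 20 spots were left out. edgeR 4.0.16 under R 4.3.3 (TMM, filterByExpr, quasi-likelihood, no block) tested the sums with Benjamini-Hochberg adjustment over all genes tested, and was checked on simulated data. Core and step 1 sums come in pairs by slice, since both were cut from the same tissue, but edgeR without a block did not use this pairing. Over 11548 genes, the paired departures from the zone averages correlated at 0.24, 0.18, 0.15 and 0.22. Ratios were compared with exact sign-flip tests (scipy 1.17.1). Named genes are the members, the selection genes, the gene lists and, for *Myh1* and *Atp2a2*, the 5 genes most correlated over core spots. Hair follicle markers were counted over 3 genes. A listed gene is not reported by name here.

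Alternatives covered the percentile and genes that define core spots, the spot filter, weighting, thinning to 5500 UMIs, library size alone, DESeq2 1.42.0, the low-count filter, the replicate block, neighbors 1 and 2 steps away, the strip cuts and each slice left out. Gene positions and transcript ends are from GENCODE M21. The floor is 3 counts, and floors cover counting error only. The scRNA-Seq and imaging of the study were not analysed here.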

Additional observations from a re-analysis of the deposited data

How the results depend on the processing

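Of 314 values recomputed under alternatives, 280 counted as unchanged and 2 reversed, and the cause of the changes was not tested. Unchanged values kept their direction and, where tested, their side of the threshold, or moved by less than the spread between slices. Counts of genes or members called were unchanged if they stayed within a fixed factor of the main count. For ratios within strips, the direction was that of the mean over slices. Some values could hardly change, such as the *Myh7* share, which was 0 under all 12 of its alternatives. The reversed values were the log2 difference of *Myh4* to *Myh1* between step 1 and core, -0.12 with core spots at the 95th percentile, and that at 4 or more steps within strip 3 with emptiest-position cuts, -0.23. The *Atp2a2* share in core spots was 4.99% at the 85th and 2.60% at the 95th percentile, with 890 and 230 core spots. Genes called lower in core spots than in step 1 were 1692, against 3427 with library size alone, 1035 at the 95th percentile and 1066 to 1481 leaving out 1 slice, lowest without slice 3.

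Genes called between strips were 216, against 143 with DESeq2, 325 with no filter on low counts, 36 at the 95th percentile (where 5 sums kept 20 core spots, against 11), 136 at the 85th, and 138 to 238 leaving out 1 slice, with 140 without slice 2 and 138 without slice 3. With the replicate block, 406 were called between strips, and between fitted lines 499 genes and 5 members. Leaving out 1 slice gave 158 to 214 between fitted lines, against 271. *Myh1* between strips was also not called at either other percentile, and *Myh4* was called under every setting run for strips and bands. In epidermis-rich spots the number of members called was 0, against 1 with the replicate block, 2 at the 85th and 4 at the 95th percentile. Apart from *Atp2a2* there and *Tnni2* and *Tnnc2* between bands, the block changed no call of a member. Depth limits *Tnni1*, *Tnnc1* and *Myh7*, for which 52, 2 and 0 UMIs were found in core spots. All slices hold the same mice, so no setting tests the spread between mice.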
